A study of Mus musculus with 6 samples.

Results

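The matrix metalloproteinases (MMPs), the ADAMTS proteases and the tissue inhibitors of metalloproteinases (TIMPs) were examined in cultured mouse primary myoblasts. Members were the protein-coding genes of the count table whose symbols are those of an MMP, a numbered ADAMTS or a TIMP. This gave 45 of 54532 genes, namely 22 MMPs, 19 ADAMTS and 4 TIMPs. The cells came from hind-limb muscle of 3-week-old mice, and bulk RNA-seq libraries were made on day 2 of proliferation, 3 labelled WT and 3 labelled eIF5A-KO. All cultures were grown in DMEM with 10% FBS and FGF, labelled as 10 µg/mL. eIF5A is a translation factor that carries hypusine, a residue made from spermidine, and the comparison asks which transcripts differ without it. In the study, eIF5A-KO mice were Pax7-CreERT2/+;eIF5A f/f on a C57BL/6j background. Tamoxifen-induced deletion is driven there by Pax7, a gene of satellite cells, so that other cells of a culture would keep eIF5A. The study gives controls in one place as Pax7-CreERT2/+ and in another as lacking Cre with eIF5A f/f, and the labels of these libraries say WT. No cell sort is given for these cultures.

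MMPs are zinc-dependent enzymes that cut collagens, proteoglycans and other matrix proteins, and most are made as inactive precursors. ADAMTS proteases are secreted relatives that mature procollagens, cut proteoglycans such as versican and aggrecan, or act on fibrillin microfibrils. TIMPs bind the active site of metalloproteinases. In muscle, these genes are known for the remodelling of the matrix around fibres after injury, and both fibroblasts and myogenic cells make them.

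Total counts were 16281216 to 17734551 per library. Eif5a mRNA, the targeted transcript, was not lower in mean in the second group. It read 1603, 986 and 1238 CPM (reads relative to the TMM-adjusted size of each library) in WT and 1364, 1459 and 1059 CPM in libraries labelled eIF5A-KO. The difference in edgeR was 0.02 (log2, 95% interval −0.51 to 0.55). Every direction below is therefore given for libraries as labelled. The study reports a successful knockout in satellite cells, measured as eIF5A mRNA by RT-qPCR and as protein by immunostaining. Those are other cells and measures than the counts of these cultures. All 10 myoblast markers were detected, with a summed level of 759 to 1942 CPM in WT and 708 to 1272 in the libraries labelled eIF5A-KO. The sums overlapped, but 9 of 10 had a log2 fold change below 0 (median −0.45). At an unadjusted p under 0.05 there were 3 (Pax7, Myog and Chrna1), of which Myog and Chrna1 did not overlap between groups, and none passed adjustment in edgeR (lowest adjusted p = 0.362). Markers of other cells were detected too. Summed fibroblast markers were at 2984 to 3650 against 2923 to 3741 CPM, endothelial markers at 1364 to 2836 against 2443 to 3661, and macrophage markers at 56.9 to 135 against 56.7 to 167. Mural markers, at 425 to 782 against 817 to 940 CPM, and Schwann cell markers, at 115 to 178 against 190 to 228, did not overlap between the groups. By log2 fold change, 10 of 10 endothelial, 9 of 9 mural, 5 of 5 Schwann cell and 9 of 11 tested macrophage markers were above 0. In the other lists, 4 of 10 fibroblast, 2 of 5 tenocyte and 0 of 5 tested neutrophil markers were above 0. The mural marker Myh11, smooth muscle myosin, rose by 1.52 (log2, edgeR adjusted p = 0.0486) and was 1 of the 3 genes of the whole table that passed adjustment. No gene passed it in edgeR with library size alone or with at least 10 counts required in every library, while 88 genes passed in DESeq2. WT replicate 1 stood apart in its share of mitochondrial counts, 5.75% against 2.11 to 3.50% elsewhere, and WT replicate 2 in neutrophil markers, 91.5 CPM against 2.02 to 13.9. No marker list had a gene at 0 in all libraries. In bulk RNA, fewer cells of a type and less RNA per cell cannot be told apart. The labels do not say that replicates came from separate mice or cultures, so that p-values measure only the spread between these libraries, which may be technical.

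Of the 45 members, 43 had at least 1 count and 33 passed the filter on low counts: 15 MMPs, 14 ADAMTS and all 4 TIMPs. Per length, in FPKM (fragments per kilobase of gene, scaled by median-of-ratios size factors), the transcript with the highest mean was Timp1, followed by Mmp3, Timp2, Adamts1, Mmp2, Mmp14, Mmp13, Timp3, Adamts4 and Mmp19. These are, in turn, a secreted inhibitor, stromelysin-1, the inhibitor that also takes part in pro-MMP2 activation, a proteoglycan-cutting ADAMTS, gelatinase A, membrane-type 1 MMP, collagenase-3, a matrix-bound inhibitor, an aggrecanase and a secreted MMP of basement membranes. Timp1 had mean FPKM of 807 over the 6 libraries, Mmp3 246 and Timp2 135. Adamts1 (69.9), Mmp2 (68.8) and Mmp14 (65.2) lay side by side and overlapped across libraries. The lower part of the order ran from Mmp13 at 26.8 to Adamts20 and Adamts3 at 0.122 and 0.101 FPKM.

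**Figure D1:**
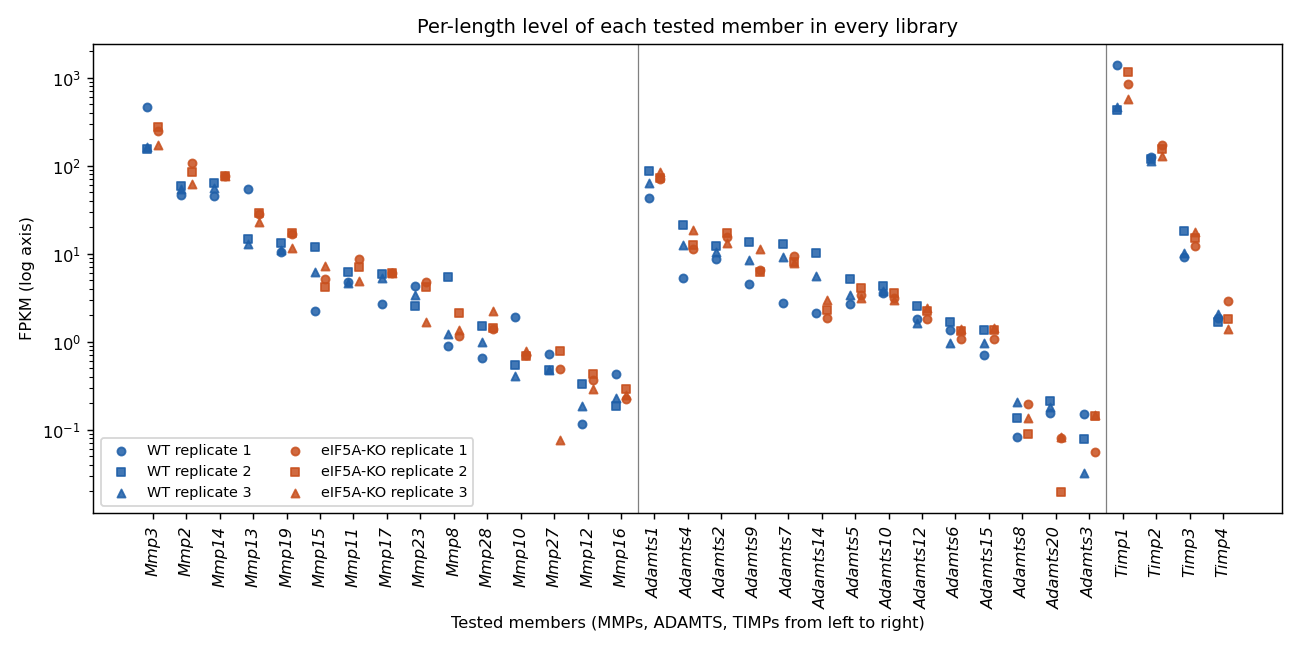
FPKM (log axis) of the 33 tested members in each of 6 libraries, grouped as MMPs, ADAMTS and TIMPs and ordered by level within each class. Blue marks WT and orange eIF5A-KO, with 1 point per library; Timp1, Mmp3 and Timp2 lie highest, and mean levels run from 807 FPKM for Timp1 to 0.101 for Adamts3.

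The gene with the highest FPKM held a large share of the sum of its class. Timp1 made up 75.2 to 91.0% of the summed TIMP FPKM in WT libraries and 79.4 to 87.1% in those labelled eIF5A-KO. Mmp3 held 45.3 to 72.7% of the summed MMP FPKM in WT and 46.9 to 54.3% in the other group. Adamts1 held 50.2 to 56.0% of the ADAMTS sum against 54.8 to 56.3%. The summed TIMP level was 1514, 563 and 591 FPKM in WT and 1024, 1337 and 719 in libraries labelled eIF5A-KO, and the MMP sum was 639, 340 and 318 against 505, 510 and 369. WT replicate 1 had the highest TIMP and MMP sums of all 6 libraries and, at 76.9 FPKM, the lowest ADAMTS sum, the others lying at 121 to 172. The ratio of summed TIMP to summed MMP was 2.37, 1.66 and 1.86 in WT and 2.03, 2.62 and 1.95 in the other group, and the groups overlapped.

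The comparison of libraries labelled eIF5A-KO with WT placed no member past the threshold of an adjusted p under 0.05 in edgeR's quasi-likelihood test with Benjamini-Hochberg adjustment over 14679 genes. The lowest adjusted p of a member was 0.503. Over all genes, 3 passed it, which is 0.0204%. DESeq2 also called 0 members, where it called 88 of 14679 genes. At an unadjusted p under 0.05, edgeR gave 3 members higher (Mmp2, Mmp14 and Adamts2) and 2 lower (Adamts14 and Adamts20), where the background over all tested genes was 2.74% higher and 4.02% lower. The 5 members are 15.2% of the 33 tested, against 6.76% of all tested genes. DESeq2 gave 5 members at that limit, where it gave 6.87% of all genes. Of 33 tested members, 19 had a log2 fold change above 0 and 14 below (48.3% of all genes were above 0), with a median of 0.11 against −0.01 over all genes. By class, 8 of 15 MMPs, 7 of 14 ADAMTS and 4 of 4 TIMPs were above 0. The criterion named by the study, a fold over 2 with an unadjusted p under 0.05, held for 2 members (Adamts14 and Adamts20), against 1.85% of all genes. The count of 3 higher members was set by single libraries: it was 5 without WT replicate 1 and 9 without WT replicate 2, and 1 without WT replicate 3, without eIF5A-KO replicate 1 or without eIF5A-KO replicate 2, and 4 without eIF5A-KO replicate 3. The share of all genes at that limit, in either direction, moved too, to 10.2% without WT replicate 1, 8.82% without WT replicate 2, 5.28% without WT replicate 3, and 3.88%, 4.81% and 7.12% without eIF5A-KO replicates 1, 2 and 3.

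**Figure D2:**
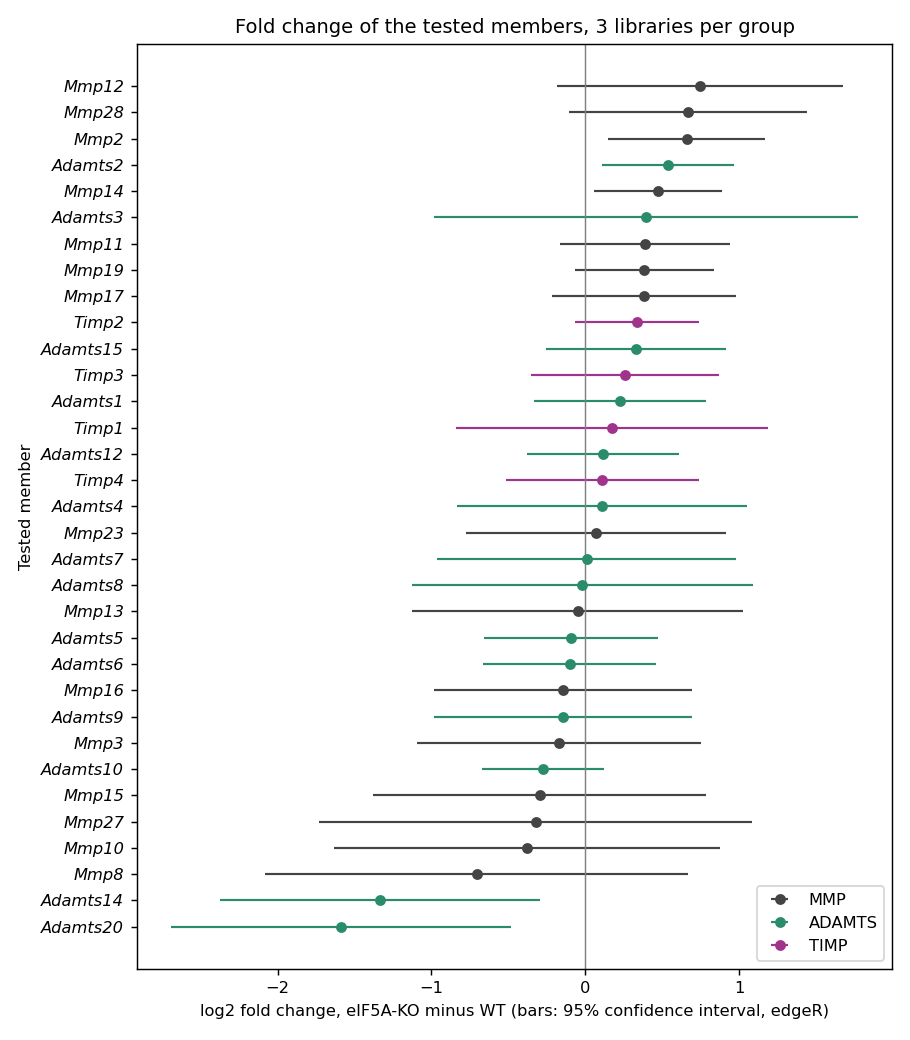
The log2 fold change (libraries labelled eIF5A-KO minus WT, 3 per group) of each of 33 tested members, with its 95% confidence interval from edgeR and coloured by class. The intervals of Mmp2, Mmp14 and Adamts2 lie above 0 and those of Adamts14 and Adamts20 below; none of these passed adjustment over all genes.

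Mmp2, gelatinase A (ENSMUSG00000031740, chr8:92827291-92853420, mm10, plus strand), read 159, 200 and 185 CPM in WT and 367, 285 and 207 CPM in libraries labelled eIF5A-KO. Every WT library lay below every library labelled eIF5A-KO, with eIF5A-KO replicate 3 close to WT replicate 2. The means were 181 ± 20.9 and 286 ± 80.4 CPM (SD, n = 3 each). The log2 fold change was 0.66 (SE 0.23), with a 95% interval of 0.15 to 1.17 and an edgeR adjusted p of 0.560. Over 15 alternative settings it ran from 0.45 to 0.85, and p was under 0.05 in 14 of them.

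Mmp14 (ENSMUSG00000000957, chr14:54431612-54445364, plus strand), the membrane-type enzyme that activates pro-MMP2 at the cell surface, read 270, 384 and 331 CPM in WT against 461, 454 and 452. The groups did not overlap, and the libraries labelled eIF5A-KO lay within 452 to 461 CPM. Means were 328 ± 56.9 and 456 ± 4.57 CPM, with a log2 fold change of 0.47 (SE 0.18, 95% interval 0.06 to 0.89, edgeR adjusted p = 0.644). The value ran from 0.36 to 0.60 over 15 alternatives, with p under 0.05 in 8. Mmp17, a further membrane-type MMP held by a lipid anchor, had 17.97, 39.0 and 35.3 CPM in WT and 40.1, 40.3 and 40.0 CPM in the other group. The groups did not overlap, although WT replicates 2 and 3 lay close to the others and WT replicate 1 far below (log2 fold change 0.38, SE 0.27, 95% interval −0.22 to 0.98, edgeR adjusted p = 0.879). It was 0.12 without WT replicate 1 and 0.59 without WT replicate 2.

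Timp2 (chr11:118301069-118355740, minus strand), the inhibitor known to take part with Mmp14 in the activation of pro-MMP2, read 495, 472 and 444 CPM in WT and 666, 607 and 505 CPM in libraries labelled eIF5A-KO, with means of 470 ± 25.6 and 593 ± 81.5. The nearest libraries were WT replicate 1 and eIF5A-KO replicate 3. The log2 fold change was 0.33 (SE 0.18, 95% interval −0.07 to 0.74, edgeR adjusted p = 0.815). The summed mural and Schwann cell markers were likewise higher without overlap in libraries labelled eIF5A-KO. So were 2 of the 10 fibroblast markers, the collagen genes Col1a1 (log2 fold change 0.72) and Col1a2 (0.71), while the fibroblast sum overlapped. Most of that list went the other way, with 4 fibroblast markers above 0 and 6 below (median −0.12). The part of these cells in the values of Mmp2, Mmp14, Mmp17, Timp2 and Adamts2 was not tested.

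**Figure D3:**
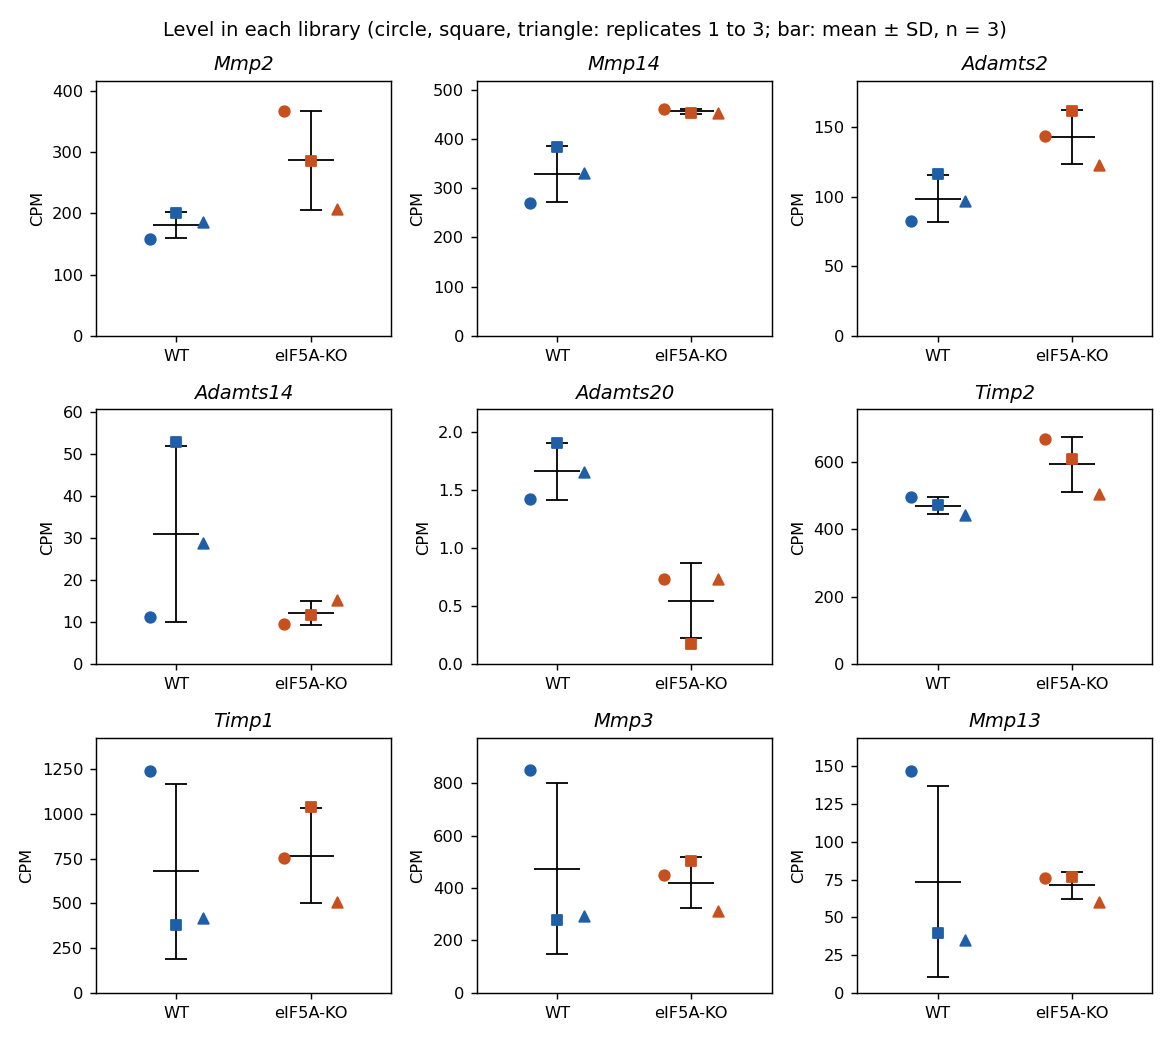
CPM (linear axes from 0) of 9 members in each library, with circles, squares and triangles for replicates 1, 2 and 3 and bars for the mean ± SD (n = 3). Groups are apart in Mmp2, Mmp14, Adamts2, Adamts20 and Timp2, and in Timp1, Mmp3 and Mmp13, WT replicate 1 is far above WT replicates 2 and 3.

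Non-overlap higher in libraries labelled eIF5A-KO was seen in 5 members (Adamts2, Mmp2, Mmp14, Mmp17 and Timp2), where 5.68% of all tested genes had it. Non-overlap in the other direction was seen in 2 (Adamts10 and Adamts20), where 6.83% of all genes had it. With WT replicate 1 left out, chosen as an alternative after the values were seen, 9 members were higher without overlap, with Mmp3, Mmp10, Mmp13 and Timp1 joining the 5, and Adamts14 joined those lower, to make 3. Over all genes these shares were then 12.0% and 12.7%.

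The procollagen N-propeptidases trim the amino-terminal propeptide of fibrillar procollagens. Adamts2 (ENSMUSG00000036545, chr11:50602084-50807573, plus strand) read 82.7, 116 and 96.9 CPM in WT and 144, 162 and 123 CPM in libraries labelled eIF5A-KO. The groups did not overlap, with means of 98.6 ± 16.8 and 143 ± 19.6 CPM and a log2 fold change of 0.54 (SE 0.19, 95% interval 0.11 to 0.96, edgeR adjusted p = 0.571). It ran from 0.43 to 0.67 over 15 alternatives, with p under 0.05 in 13. Adamts14 (ENSMUSG00000059901, chr10:61197112-61273438, minus strand), which acts on the same type of substrate, read 11.2, 53.0 and 28.9 CPM in WT against 9.73, 11.8 and 15.4. WT replicate 1 lay among the other group, whereas WT replicates 2 and 3 were above it. Means were 31.0 ± 20.98 and 12.3 ± 2.88 CPM, and the log2 fold change was −1.33 (SE 0.46, 95% interval −2.37 to −0.29, edgeR adjusted p = 0.560). Without WT replicate 1 it was −1.72 with an edgeR adjusted p of 0.0278, the sole left-out library with which a member passed the threshold, and without WT replicate 2 it was −0.70 with an adjusted p of 0.602. Over 15 alternatives it ran from −1.72 to −0.70, with an unadjusted p under 0.05 in 10. With no filter on low counts the adjusted p was 1.23e-05, the lowest of a range up to 1.00 over the alternatives. Among the myoblast markers, the satellite cell factor Pax7 read 12.9, 51.7 and 25.2 CPM in WT and 12.97, 8.29 and 10.6 CPM in libraries labelled eIF5A-KO, so that WT replicates 2 and 3 were highest as in Adamts14. Myog, a factor of differentiation, read 14.4, 76.3 and 32.3 against 8.93, 5.09 and 2.10 CPM, and the acetylcholine receptor subunit Chrna1 85.3, 224 and 148 against 75.0, 43.8 and 29.9. In all 3 markers WT replicate 2 was highest and WT replicate 1 the lowest WT library, as in Adamts14. This order is not particular to them, and was also seen in Adamts4, Adamts7, Mmp15 and the fibroblast marker Col3a1. The 3 markers and Adamts14 were each picked at an unadjusted p under 0.05 in edgeR, so that being lower is shared by choice. The part of these markers in Adamts14 was not tested. Adamts3, the remaining propeptidase, stood at 0.177 to 0.840 CPM in WT and 0.306 to 0.794 CPM in the other group.

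Among the proteoglycan-cutting ADAMTS, Adamts20 (ENSMUSG00000022449, chr15:94270163-94465418, minus strand), which is known for versican cleavage in development, was covered by few reads. It had 22, 36 and 28 counts in WT and 12, 3 and 13 in libraries labelled eIF5A-KO, or 1.42, 1.91 and 1.65 against 0.734, 0.178 and 0.737 CPM. The groups did not overlap, and at this depth a handful of reads sets each value. The log2 fold change was −1.59 (SE 0.49, 95% interval −2.69 to −0.48, edgeR adjusted p = 0.503). Requiring at least 10 counts in every library removes this gene, and in the 14 alternatives that kept it p was under 0.05. Its log2 fold change ran there from −1.86 to −0.16, the value on log2(FPKM + 1), which understates the change of a gene this low, and it was −0.84 on log2(FPKM + 0.1).

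Adamts1, which had the highest FPKM of its class, read 232, 462 and 339 CPM in WT and 380, 382 and 447 CPM in the other group (log2 fold change 0.23, SE 0.25, 95% interval −0.33 to 0.78, edgeR adjusted p = 0.936). Its log2 fold change was 0.02 without WT replicate 1, 0.50 without WT replicate 2 and 0.15 without eIF5A-KO replicate 3. Adamts4 read 25.6, 104 and 60.7 against 55.4, 60.6 and 89.1 CPM (0.11, SE 0.42, 95% interval −0.83 to 1.05, edgeR adjusted p = 0.983). The groups overlapped in both genes, and WT replicate 1 was lowest and WT replicate 2 highest. The sign of Adamts4 turned without WT replicate 1 (−0.26) or eIF5A-KO replicate 3 (−0.12), and without WT replicate 2 the value was 0.66. Adamts10, which binds fibrillin, read 19.6, 23.8 and 20.8 CPM in WT and 17.3, 19.3 and 16.4 in libraries labelled eIF5A-KO. No library of the second group reached the lowest WT value, but the nearest libraries stood at 19.3 and 19.6 CPM (log2 fold change −0.27, SE 0.18, 95% interval −0.67 to 0.12, edgeR adjusted p = 0.863). Mmp19 read 37.9, 46.9 and 38.8 CPM in WT against 58.9, 61.0 and 41.3, with overlap from eIF5A-KO replicate 3 (0.38, SE 0.20, 95% interval −0.07 to 0.83, edgeR adjusted p = 0.809).

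Among the inhibitors, Timp1 (chrX:20870166-20874735, plus strand) read 1243, 380 and 417 CPM in WT and 752, 1041 and 509 CPM in libraries labelled eIF5A-KO. WT replicate 1 was the highest library and the other WT libraries the lowest. The means were 680 ± 488 and 767 ± 266 CPM (log2 fold change 0.17, SE 0.45, 95% interval −0.84 to 1.19, edgeR adjusted p = 0.976). Without WT replicate 1 the log2 fold change was 0.95 (edgeR adjusted p = 0.235, and 0.235 to 1.00 over all alternatives), and the sign turned without WT replicate 2 (−0.11), WT replicate 3 (−0.08) or eIF5A-KO replicate 2 (−0.10). Timp3, which is held in the matrix and also inhibits ADAMTS enzymes, read 75.1, 149 and 84.4 CPM against 100, 124 and 145 (0.26, SE 0.27, 95% interval −0.35 to 0.87, edgeR adjusted p = 0.934). Its value was 0.08 without WT replicate 1, 0.63 without WT replicate 2, 0.40 without eIF5A-KO replicate 1 and 0.13 without WT replicate 3 or eIF5A-KO replicate 3. Timp4 read 11.2, 10.0 and 12.2 CPM against 17.2, 10.8 and 8.16 (0.11, SE 0.28, 95% interval −0.51 to 0.74, edgeR adjusted p = 0.976). The groups overlapped in both, and without eIF5A-KO replicate 1 the sign of Timp4 turned (−0.23). Timp1, Timp3 and Timp4 each lie within a synapsin gene on the opposite strand (Syn1, Syn3 and Syn2), and the strand setting of the counting is not given in the sources used here. Syn1 had 6 to 24 counts, Syn3 4 to 19 and Syn2 77 to 122, while Timp1 had at least 7059, Timp3 at least 1162 and Timp4 at least 144.

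Collagenase-3, Mmp13, and stromelysin-1, Mmp3, had their highest level in WT replicate 1. Mmp3 (ENSMUSG00000043613, chr9:7445822-7455975, plus strand) read 849, 280 and 293 CPM in WT and 448, 502 and 313 in libraries labelled eIF5A-KO, with a log2 fold change of −0.17 (SE 0.41, 95% interval −1.09 to 0.75, edgeR adjusted p = 0.975). Mmp13 (ENSMUSG00000050578, chr9:7272514-7283331, plus strand) read 147, 39.7 and 34.9 against 76.1, 76.8 and 60.5 CPM, with a log2 fold change of −0.05 (SE 0.48, 95% interval −1.13 to 1.03, edgeR adjusted p = 0.992). In both genes, the libraries labelled eIF5A-KO lay above WT replicates 2 and 3 and below WT replicate 1. Without WT replicate 1 the sign turned, to 0.56 for Mmp3 (edgeR adjusted p = 0.405, and 0.405 to 1.00 over all alternatives) and to 0.94 for Mmp13 (edgeR adjusted p = 0.0611, and 0.0611 to 1.00 over all alternatives).

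The spread within WT was then read over all tested members. The range over the WT libraries had a median of 0.98 (log2, members), against 0.55 over all tested genes, and the range over the libraries labelled eIF5A-KO 0.56 against 0.39. It was larger in WT for 25 of 33 members (75.8%, against 64.4% of all tested genes). WT replicate 1 was the lowest library in 17 members (51.5%, against 27.9% of all genes) and the highest in 6 (18.2%, against 27.4%), which were Timp1, Mmp3, Mmp10, Mmp13, Mmp16 and Adamts3. WT replicate 2 was highest in 13 members (39.4%, against 24.6%), Adamts7 and Mmp15 among them. Adamts7, which cuts cartilage oligomeric matrix protein, read 17.5, 81.9 and 58.2 CPM in WT and 49.0 to 58.8 in the other group, and Mmp15, a membrane-type MMP, 12.2, 64.2 and 33.8 against 22.6 to 39.3. Collagenase-2, Mmp8, known from neutrophils, read 2.20, 13.2 and 3.01 CPM in WT and 2.81 to 5.21 in the other group. Gelatinase B, Mmp9, had 2, 49 and 9 counts in WT and 7, 8 and 15 in the others, and was not tested. The highest value of both was in WT replicate 2, the library with the highest neutrophil marker sum, and the part of those cells in it was not tested. These 4 genes, with Mmp10, Adamts3 and the run on chromosome 9, were picked after their values were seen. WT replicate 1 also had the lowest endothelial, mural, Schwann cell and tenocyte marker sums, and the part of these and of its mitochondrial share in its values was not tested.

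**Figure D4:**
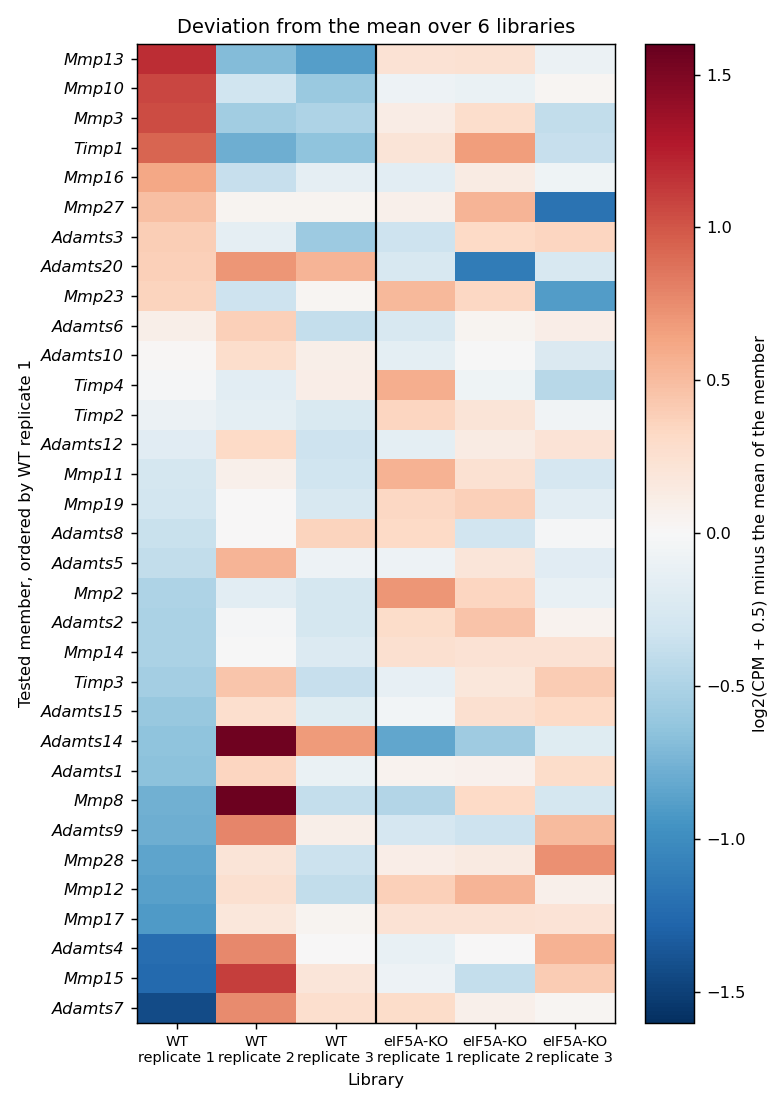
Deviation of each tested member (rows, log2 of CPM + 0.5 minus the member's mean over 6 libraries) in each library (columns; WT left of the line, eIF5A-KO right), ordered by WT replicate 1. Mmp13, Mmp10, Mmp3 and Timp1 are high in WT replicate 1, where Adamts7, Mmp15 and Adamts4 are low.

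Mmp3, Mmp13 and Mmp10 belong to a run of 9 members on chromosome 9 (chr9:7272514-7699585, 427.1 kb), within which all 9 annotated protein-coding genes were MMPs. In order these were Mmp13, Mmp12, Mmp1b, Mmp3, Mmp10, Mmp8, Mmp27, Mmp20 and Mmp7. The mean FPKM was 246 for Mmp3 and 26.8 for Mmp13, and between 0.0405 (Mmp1b) and 2.02 (Mmp8) for the other 5 with any count. Mmp7 (matrilysin) and Mmp20 (enamelysin, of tooth enamel) had 0 counts in all libraries, which allows up to 3 counts, or 0.159 to 0.194 CPM, in a library, for counting error alone. Mmp10 (stromelysin-2) read 3.30, 0.955 and 0.709 CPM in WT and 1.18 to 1.36 in the other group, with WT replicate 1 highest as in Mmp3 and Mmp13. Mmp1b shares 1453 bases with Mmp1a at 90.6% identity, and 284 bases of Mmp3 are matched by a pseudogene at 95.4%. Mmp12, with 13 to 52 counts per library, is matched by many genes and pseudogenes, among them Gm44894 over 819 bases at 90.5%. Reads in these stretches may be split.

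**Figure D5:**
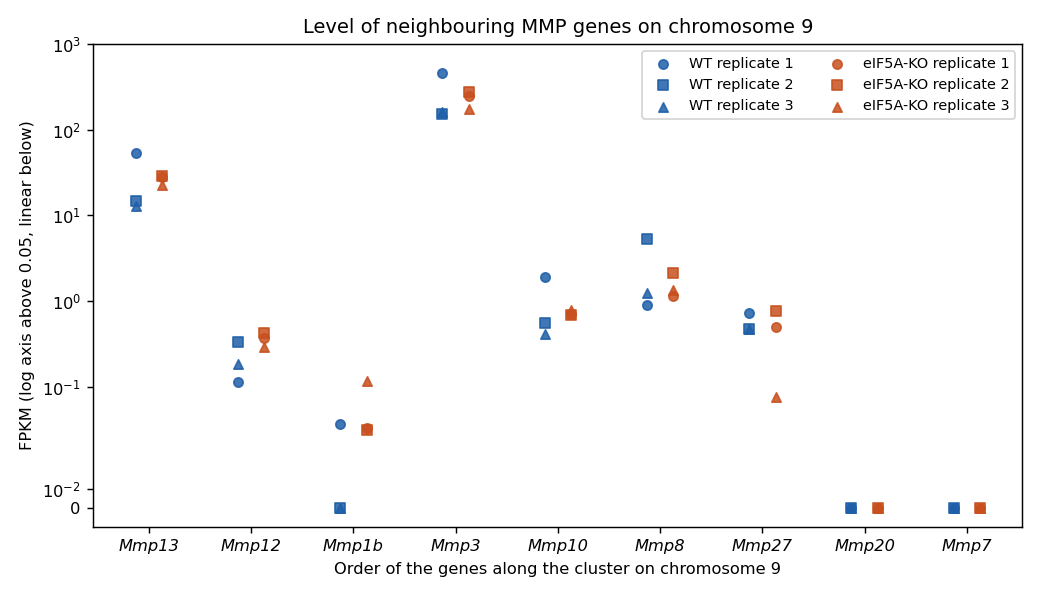
FPKM (log axis above 0.05, linear below) of 9 neighbouring MMP genes in their order along chromosome 9, with 1 point per library (blue WT, orange eIF5A-KO). Mmp3 and Mmp13 stand above the rest and are highest in WT replicate 1, and Mmp20 and Mmp7 are at 0 in all 6 libraries.

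Promoters of several genes of this run are known for binding sites of AP-1, the Fos and Jun factor that activates several MMP genes. Windows from 250 bases before to 50 bases after the start were taken from RefSeq (GRCm38.p6), in which 31 of 45 members had an entry. The letters TGACTCA and TGAGTCA, which are each other's reverse complement so that both strands are read, occur in 5 of 31 member windows (16.1%), all in the run on chromosome 9 (Mmp1b, Mmp3, Mmp7, Mmp10 and Mmp13), and in 5.2% of 32851 windows of all genes. The letters TATAAA, read on the gene's strand alone, occur in 8 of 31 (25.8%, against 8.32%), namely in the same 5 and in Adamts1, Mmp20 and Mmp21. The 3 tested members with an AP-1 match, Mmp3, Mmp10 and Mmp13, were each highest in WT replicate 1, as were Timp1 and Adamts3, which hold no AP-1 match. The run was picked after its values were seen. The 3 windows are shown with that of Mmp14, which holds neither motif and was lowest in WT replicate 1, and which was picked for this after its values were seen. Adamts1, with a TATAAA match, was also lowest in WT replicate 1. Capitals mark AP-1 and TATAAA matches, and all windows run 5′ to 3′ on the gene's strand.
Mmp3 promoter, chr9:7445572-7445871, plus strand: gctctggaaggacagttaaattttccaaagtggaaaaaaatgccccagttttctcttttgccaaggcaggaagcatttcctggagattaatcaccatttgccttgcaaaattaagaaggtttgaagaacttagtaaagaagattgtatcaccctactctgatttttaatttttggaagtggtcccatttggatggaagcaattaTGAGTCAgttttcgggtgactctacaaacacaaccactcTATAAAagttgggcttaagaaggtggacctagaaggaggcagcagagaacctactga
Mmp13 promoter, chr9:7272264-7272563, plus strand: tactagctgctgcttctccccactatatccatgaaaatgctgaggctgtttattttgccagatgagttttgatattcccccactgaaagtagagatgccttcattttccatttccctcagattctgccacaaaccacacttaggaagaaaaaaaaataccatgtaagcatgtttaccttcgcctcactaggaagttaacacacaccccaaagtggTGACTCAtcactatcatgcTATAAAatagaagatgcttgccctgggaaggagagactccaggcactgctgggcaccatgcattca
Mmp10 promoter, chr9:7502092-7502391, plus strand: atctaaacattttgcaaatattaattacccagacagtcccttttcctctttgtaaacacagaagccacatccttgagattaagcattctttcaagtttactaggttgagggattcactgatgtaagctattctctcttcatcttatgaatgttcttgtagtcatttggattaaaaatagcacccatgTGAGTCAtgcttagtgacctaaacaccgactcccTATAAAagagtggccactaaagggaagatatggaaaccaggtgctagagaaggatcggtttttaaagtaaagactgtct
Mmp14 promoter, chr14:54431348-54431647, plus strand: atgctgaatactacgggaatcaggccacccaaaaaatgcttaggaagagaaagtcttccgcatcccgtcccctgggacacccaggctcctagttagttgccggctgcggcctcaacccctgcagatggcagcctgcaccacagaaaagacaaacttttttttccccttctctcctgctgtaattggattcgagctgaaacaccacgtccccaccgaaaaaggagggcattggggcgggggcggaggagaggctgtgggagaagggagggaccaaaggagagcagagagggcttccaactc
The first base of the AP-1 match lies 46 bases before the RefSeq start in Mmp3, 35 in Mmp13 and 63 in Mmp10. A match of letters is a description and does not show that a factor binds there.

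The 17 tested members outside the rule for naming had log2 fold changes from −0.71 to 0.75, with 8 above 0 and 9 below. Their lowest adjusted p in edgeR was 0.809. The 12 members below the filter had 0 to 90 counts over all 6 libraries, and 9 of them under 10. These were Adamts13, the protease of von Willebrand factor, Adamts16, Adamts17, Adamts18, Adamts19, Mmp1b, Mmp7, Mmp9, Mmp20, Mmp21, Mmp24 and Mmp25. They were left out of the test by the filter on low counts, and with no filter the 10 of them that had any count were tested.

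Partners of the family were read from a list of 61 other genes, of which 52 were tested. Of these, 37 had a log2 fold change above 0 and 15 below, with a median of 0.18. No gene passed adjustment in edgeR (lowest adjusted p = 0.362), and at an unadjusted p under 0.05 there were 6 higher and 0 lower (2.74% and 4.02% over all genes). By log2 fold change these were Serpine2, a serpin that inhibits plasminogen activators and thrombin (0.68, 95% interval 0.21 to 1.14), the matricellular protein Thbs1 (0.56, 95% interval 0.04 to 1.08), Adamtsl2 (1.18, 95% interval 0.29 to 2.07) and Adamtsl5 (0.46, 95% interval 0.02 to 0.90), which resemble ADAMTS without a protease domain, and the matrix proteins biglycan, Bgn (0.82, 95% interval 0.41 to 1.24) and elastin, Eln (0.82, 95% interval 0.27 to 1.36). By group, this was 1 of 6 tested genes of plasminogen activation, 1 of 8 of other inhibitors and clearance, 0 of 9 convertases and membrane partners, 0 of 10 membrane ADAMs, 2 of 6 ADAMTS-like proteins and 2 of 13 matrix substrates. The summed mural and Schwann cell markers were also higher without overlap, and the part of those cells in the values of these genes was not tested.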

How the data were processed

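RNA from 6 libraries, 3 per group, was extracted with TRIzol and prepared with an NEBNext Ultra kit. According to the submitters' processing notes and the study's methods, reads were mapped to mm10 with HISAT, and DEGSeq2 is named for gene coverage. The authors deposited raw counts per gene and FPKM. Library totals and depth are given above, and the limit given for a count of 0 covers sampling of reads only, since no molecular identifiers are named. Annotation, strand setting and the treatment of reads with several matches are not given in the sources used here. Coordinates equalled those of GENCODE M21 (GRCm38) for 44 of 45 members, and 13 members have another gene over their exons (Timp3 with Syn3 over 21.3% of its exon bases, Mmp19 with Tmem198b over 22.3%).

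Counts were analysed in R 4.3.3 with edgeR 4.0.16: filterByExpr, TMM factors, the quasi-likelihood F test and Benjamini-Hochberg adjustment over 14679 genes, with no covariate. The prior count of fold changes was 0.125. Standard errors were the log2 fold change over the root of F, and intervals are at 95%. CPM used TMM factors. The denominator of the deposited FPKM was 0.943 to 1.075 times the library total, and was the DESeq2 size factor times the geometric mean of the totals. FPKM values were used for levels between genes and in alternatives.

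The members, gene lists and markers were chosen with earlier results of these data known. Named with values were each TIMP, tested members with an unadjusted p under 0.05 or without overlap between groups, and the 10 with the highest mean FPKM; others are said to be picked after their values were seen. Alternatives were DESeq2's size factors, library size alone, a minimum of 10 counts in each library or no filter, limma-voom, DESeq2 1.42.0 and limma 3.58.1 on log2 of FPKM with a pseudocount of 1 or 0.1, the replicate number as a block, and each library left out. The test was checked on simulated data. Copies were searched with blastn 2.17.0.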

Additional observations from a re-analysis of the deposited data

How the results depend on the processing

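No setting moved the median of all genes by over 0.1 (log2). Mmp2, Mmp14, Adamts2, Adamts14, Adamts20, Timp2, Timp3, Mmp17, Mmp19, Adamts1 and Adamts10 kept their direction in every alternative run. The count of members with an adjusted p under 0.05, 0 in the report, was 1 with no filter (43 members tested), and 0 to 1 with one library left out. That member was Adamts14 both times, with a log2 fold change of −1.32 (edgeR adjusted p = 1.23e-05) and of −1.72 without WT replicate 1 (adjusted p = 0.0278). The adjusted p of Adamts14 ran from 1.23e-05 to 1.00 over its alternatives. Leaving out one library gave 1 to 9 higher and 1 to 3 lower members at an unadjusted p under 0.05, where 3.88 to 10.2% of all genes were at that limit in either direction, and 1 to 3 members past the fold and p criterion. The lower count was 1 with at least 10 counts in every library, with limma-voom and with limma at a pseudocount of 1 or 0.1 on FPKM, and the criterion counts were 1, 1, 0 and 0. In that order, 6.74, 6.55, 6.68 and 6.68% of all genes had an unadjusted p under 0.05 in either direction. With at least 10 counts Adamts20 is not tested. Adamts14 had an unadjusted p of 0.056 with limma-voom, and of 0.063 and 0.062 with limma at a pseudocount of 1 and 0.1 on FPKM. On those FPKM scales Adamts20 had log2 fold changes of −0.16 and −0.84, short of a fold of 2. The cause of the other moved counts was not tested. Over all genes, the 3 with an adjusted p under 0.05 became 249 with no filter, 88 in DESeq2 and 56 without WT replicate 1, and 0 under the other scalings, the limma fits, a minimum of 10 counts and each other left-out library.

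Among the 16 members named by rule, the sign turned for 5, and other members were not followed one by one. The log2 fold change of Mmp13 was 0.28 with limma-voom, 0.25 and 0.27 with limma on log2(FPKM + 1) and log2(FPKM + 0.1), and −0.39 to 0.94 with one library left out. That of Mmp3 was 0.011 and 0.012 on the same FPKM scales and −0.44 to 0.56 with one library left out. With one library left out Adamts4 ran from −0.26 to 0.66, Timp1 from −0.11 to 0.95 and Timp4 from −0.23 to 0.33. The median of the tested members, 0.11 in the report, ran from 0.00135 without eIF5A-KO replicate 1 to 0.34 without WT replicate 2. The count of members higher without overlap was 9 without WT replicate 1, where that of all genes was 12.0%.

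Replicate numbers did not pair the libraries: deviations of same-numbered libraries correlated at 0.084, −0.16 and 0.105. With the replicate block, 4 members (12.1%, against 5.96% of all genes) had an unadjusted p under 0.05, without Mmp14, 0 an adjusted p under 0.05, the median was 0.23, Mmp3 was at 0.0071 and Mmp13 at 0.28, and 24 genes in all passed adjustment in place of 3. Not every library correlated best with its own number. Depth limits Adamts20, Adamts3, Adamts8, Mmp27 and the 12 untested members.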
